A study of Mus musculus with 18 samples.

Results

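Toll-like receptors and the proteins that fold, escort or signal for them were followed through 3 stages of the mouse B lineage, in mice with Dnmt3a and Dnmt3b, which set up new DNA methylation, intact or deleted in B cells. The set held 10 genes of the 21761 rows of the deposited FPKM table, chosen by symbol and not by any measured value: the receptors Tlr1, Tlr2, Tlr4, Tlr6, Tlr7 and Tlr9, the escort protein Unc93b1, the receptor pair Cd180 and Ly86, and the adaptor Myd88. All 10 passed the filter on low values (FPKM above 1 in at least 2 libraries), as did 11522 genes in all. FPKM is a fragment count scaled to exon length and to the size of the library, so that levels can be compared between genes of different length.

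Messenger RNA was sequenced from 18 libraries of 5000 sorted cells. Naive B cells (nB; B220+ Fas- GL7-) came from lymph nodes of unimmunized mice. Germinal centre B cells (GCB; B220+ Fas+ GL7+ PE+) came from lymph nodes, and bone marrow plasma cells (BMPC; CD138+) from bone marrow, of mice given phycoerythrin in complete Freund's adjuvant 30 days before. All mice carried loxP-flanked Dnmt3a and Dnmt3b on a mixed B6;129S4 background. Dnmt3-deficient mice also carried 1 allele of a Cre recombinase active in B cells, and Dnmt3-sufficient mice carried no Cre, so that the presence of Cre and the loss of Dnmt3a and Dnmt3b cannot be told apart. Each of the 6 groups had 3 libraries, and each GCB library pooled 2 mice. Of the 6 libraries per cell type, 4 were female and 2 male in nB and in GCB, and 2 were female and 4 male in BMPC.

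Toll-like receptors recognise microbial molecules and, in B cells, add an innate signal to that of the antigen receptor. Tlr1, Tlr2, Tlr4 and Tlr6 sit at the cell surface and bind bacterial lipids and lipoproteins, Tlr1 and Tlr6 as partners of Tlr2, whereas Tlr7 and Tlr9 read RNA and DNA in endosomes, where Unc93b1 delivers them. Cd180 is a Toll-like surface receptor without a signalling domain that needs Ly86 (MD-1) as its partner, and Myd88 is the adaptor through which all of the Toll-like receptors in the set can signal.

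The depth of the BMPC libraries was lower: 1355231 to 3803197 reads fell on genes, against 6692516 to 8987922 in nB and 7644544 to 8903872 in GCB. Of the 11522 genes tested, 2991 to 4615 were at 0 in each BMPC library, against 680 to 1252 in the other libraries. Markers of each cell type were highest under its label. The summed level of 6 GCB markers was 726 to 949 FPKM in GCB and at most 73.6 elsewhere, and that of 6 plasma cell markers was 17008 to 48114 FPKM in BMPC and at most 917 elsewhere. Mature B cell markers summed to 1172 to 1846 FPKM in BMPC, against 6949 to 8086 in nB and 3871 to 4453 in GCB. Markers of other cells were also present, mostly in BMPC. The summed level of 12 myeloid markers was 9.37 to 635 FPKM there, with 1 of the 12 at 0 throughout, against at most 13.1 in nB, where 9 were at 0 in every library, and 1.61 in GCB, where 8 were. Most of the BMPC sum was S100a8, Ngp and S100a9 (means 133, 71.5 and 70.3 FPKM). Camp, Ltf and Adgre1 were at 0 in 5 of 6 BMPC libraries each, and Elane, Csf1r and Itgam in 4 of 6. Early B cell markers summed to 308 to 613 FPKM in BMPC and to at most 22.5 elsewhere. Most of the BMPC sum was Dntt, which averaged 385 FPKM, against 17.7 for Igll1, 13.6 for Vpreb1 and 0.566 for Rag1. T cell markers summed to 29.0 to 98.5 FPKM in BMPC, 15.9 to 48.4 in nB and at most 4.77 in GCB. In BMPC this sum was mostly Cd3d and Cd3e (means 41.9 and 15.4 FPKM), with Cd4 and Cd8a at 0 in 5 of 6 libraries each. Erythroid markers, of which 3 of 5 were in the table, summed to 125 to 2704 FPKM in BMPC and to at most 276 elsewhere. Dendritic markers summed to 6.64 to 43.0 FPKM in BMPC, 23.6 to 116 in nB and 16.1 to 29.8 in GCB. The nB sum was mostly Siglech (mean 62.3 FPKM) and the GCB sum mostly Flt3 (mean 23.0 FPKM). Gene-level FPKM of Dnmt3a and Dnmt3b also counted exons outside the deleted part and did not check the deletion.

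Promoters of 4 of the genes are shown because the study named PU.1 and E2A as factors at Dnmt3-dependent sites, and because these genes differed in whether any transcript was left in BMPC. RefSeq (GRCm38.p6) start sites were found for 7 of the 10 genes, 10 start sites in all, and the 250 bases before each start were searched on both strands for GAGGAAG (a PU.1 core), GGAANNGAA (a PU.1-IRF composite) and CAGNTG (an E2A site). No start site was found for Tlr4, Tlr7 and Unc93b1, so these were not searched. Tlr1 (chr5:64933559-64933808, minus strand) and Tlr9 (chr9:106222348-106222597, plus strand), neither of which had a read in any BMPC library, were the only genes of the 7 with a GAGGAAG match. The other Tlr1 start site (chr5:64932700-64932949, minus strand) had no match to any of the 3 motifs and is not shown. Tlr6 (chr5:64960049-64960298, minus strand), which also fell to the detection limit, and Ly86 (chr13:37345095-37345344, plus strand), which stayed measurable in every library, had no match to any of the 3 motifs. Capitals mark motif matches. No 2 matches overlapped.
Tlr1: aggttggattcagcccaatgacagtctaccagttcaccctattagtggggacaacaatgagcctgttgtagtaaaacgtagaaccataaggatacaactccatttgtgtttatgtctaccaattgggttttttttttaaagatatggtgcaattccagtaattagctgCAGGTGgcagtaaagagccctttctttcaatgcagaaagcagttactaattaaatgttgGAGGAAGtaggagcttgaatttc
Tlr9: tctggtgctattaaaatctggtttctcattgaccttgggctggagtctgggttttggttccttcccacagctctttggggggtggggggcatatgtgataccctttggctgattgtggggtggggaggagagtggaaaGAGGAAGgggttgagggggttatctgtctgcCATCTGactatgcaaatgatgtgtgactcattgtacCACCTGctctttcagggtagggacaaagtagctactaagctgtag
Tlr6: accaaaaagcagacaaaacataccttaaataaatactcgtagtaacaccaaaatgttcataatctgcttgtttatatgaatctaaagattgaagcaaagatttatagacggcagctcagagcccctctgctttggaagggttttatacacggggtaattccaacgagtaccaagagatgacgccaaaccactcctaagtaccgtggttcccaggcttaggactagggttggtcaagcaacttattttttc
Ly86: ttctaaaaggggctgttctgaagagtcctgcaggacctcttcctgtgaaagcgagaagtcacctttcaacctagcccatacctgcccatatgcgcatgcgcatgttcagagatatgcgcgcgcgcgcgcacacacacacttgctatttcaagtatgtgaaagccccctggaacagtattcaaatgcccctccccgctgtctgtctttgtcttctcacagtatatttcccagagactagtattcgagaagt

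At the Tlr1 start site shown, the GAGGAAG match began 23 bases before the start and the CAGNTG match 82 bases before it. Tlr9 held GAGGAAG at 112 bases and CAGNTG at 81 and 45 bases before its start. CAGNTG also occurred in the promoters of Tlr2 and Myd88, so that 4 of the 7 genes had it, and GGAANNGAA occurred in none. Among all 32851 promoters in the table, 10.6% held GAGGAAG, 6.99% GGAANNGAA and 44.8% CAGNTG. Counted in the same unit, by start site, 2 of the 10 held GAGGAAG, 0 held GGAANNGAA and 4 held CAGNTG. The matches are letters in a window, and no binding was measured here.

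In naive B cells the 10 genes ran from Ly86 to Tlr2 in level. Ly86 (625 ± 84.4 FPKM, SD, n = 6 libraries of both genotypes) and Unc93b1 (393 ± 48.7) were the most abundant, and their ranges did not overlap. Tlr1 (65.9 ± 14.9), Myd88 (46.0 ± 16.0) and Cd180 (37.1 ± 10.5) followed with overlapping ranges. Tlr4 (11.2 ± 6.78), Tlr6 (10.7 ± 3.53) and Tlr7 (7.23 ± 2.48) overlapped in turn, and Tlr9 (3.46 ± 0.610) and Tlr2 (2.87 ± 2.20) were lowest, within the range of Tlr7 at their upper ends. In GCB the order was Ly86 (315 ± 41.3), Unc93b1 (137 ± 23.5), Myd88 (53.8 ± 8.32), Cd180 (27.6 ± 4.01), Tlr1 (19.9 ± 5.98), Tlr6 (8.33 ± 3.63), Tlr4 (5.95 ± 1.86), Tlr9 (1.35 ± 0.594), Tlr7 (0.899 ± 0.885) and Tlr2 (0.893 ± 1.23). Among these, the ranges of Ly86, Unc93b1 and Myd88 were separate from their neighbours, while Cd180 overlapped Tlr1, Tlr1 overlapped Tlr6, Tlr6 overlapped Tlr4, and Tlr9, Tlr7 and Tlr2 overlapped each other. In BMPC Ly86 (94.5 ± 58.0) and Unc93b1 (56.7 ± 24.4) still led with overlapping ranges, Myd88 followed (12.1 ± 9.26), then Tlr4 (8.15 ± 13.3), Tlr2 (6.73 ± 11.2), Cd180 (2.90 ± 5.99) and Tlr7 (2.21 ± 3.63), each overlapping the next, and Tlr1 and Tlr9 were at 0 in all 6 libraries.

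**Figure D1:**
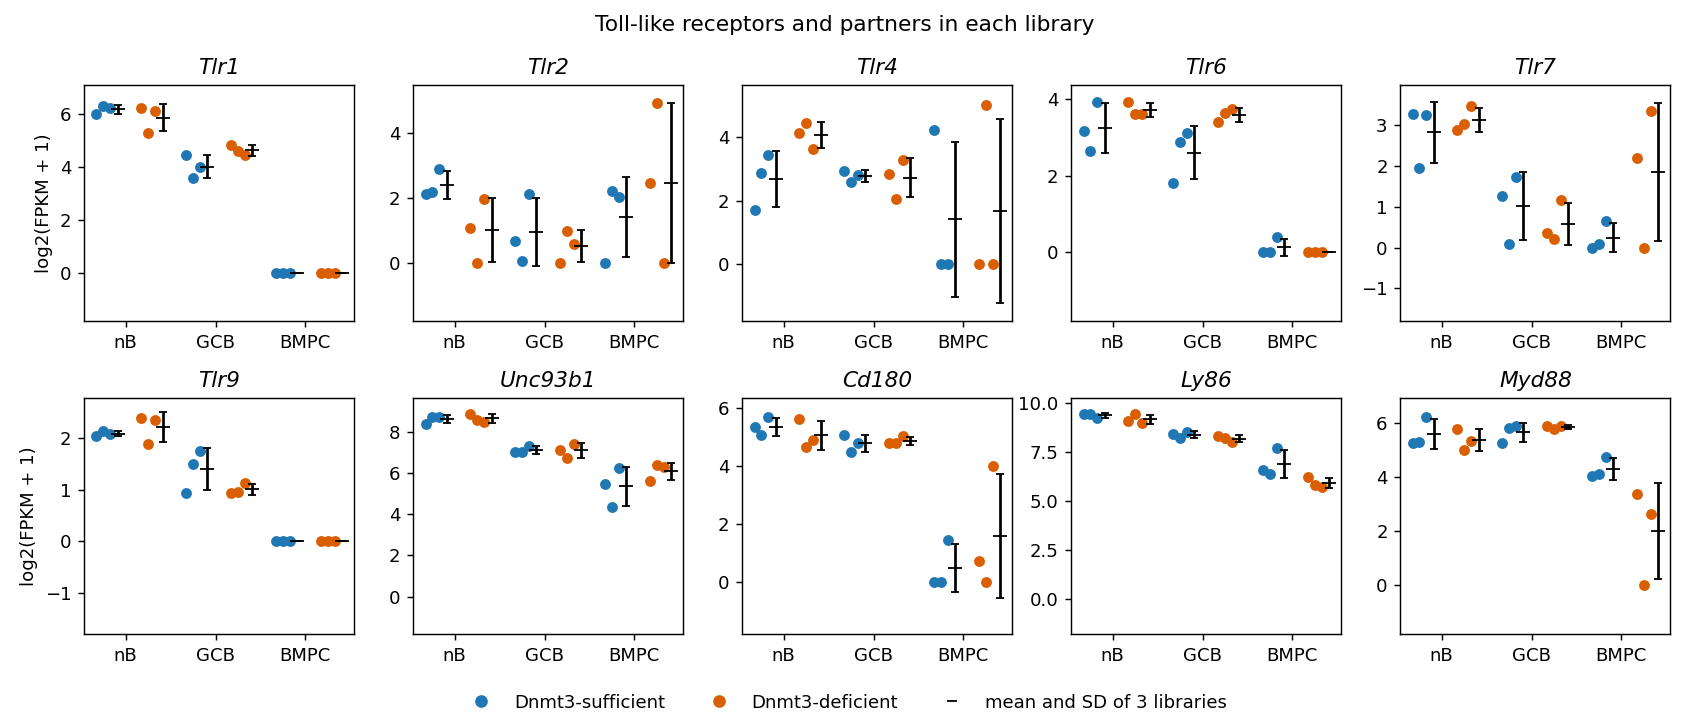
Level of each gene as log2(FPKM + 1) in the 18 libraries, by cell type on the x axis (blue, Dnmt3-sufficient; orange, Dnmt3-deficient; the black mark and bar are the mean and SD of the 3 libraries of a group). Tlr1 and Tlr9 step down from nB to GCB and are at 0 in all 6 BMPC libraries, while Tlr2, Tlr4, Tlr7 and Cd180 are at 0 in some BMPC libraries and not in others.

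The first comparison asked how the receptor set differed between the stages. Differences are given on the log2(FPKM + 1) scale as the mean of both genotypes, with standard errors and adjusted p-values from limma, and a gene was called at an adjusted p of at most 0.05 and a difference of at least 1. This scale understates the change of genes with a low level. From nB to GCB, Tlr1, Tlr7 and Unc93b1 fell and the other 7 genes were not called; this count was 5 without the second deficient nB library and 6 without the third sufficient GCB library. From nB to BMPC 8 genes fell, all but Tlr2 and Tlr4. From GCB to BMPC 7 fell, all but Tlr2, Tlr4 and Tlr7. None of the 10 rose in any of these comparisons.

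Over all genes tested, 16.6% were lower and 12.2% higher in GCB than in nB, 33.5% lower and 8.76% higher in BMPC than in nB, and 29.6% lower and 7.16% higher in BMPC than in GCB. The median change of the 10 genes was -0.96 from nB to GCB, -2.60 from nB to BMPC and -1.64 from GCB to BMPC, beside medians over all genes tested of -0.13, -0.79 and -0.66. Scaling by the median of ratios moved the all-gene median by 0.11 in BMPC against nB and by 0.15 in BMPC against GCB. Fewer cells that express a gene and less of its RNA per cell cannot be told apart in such bulk libraries.

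**Figure D2:**
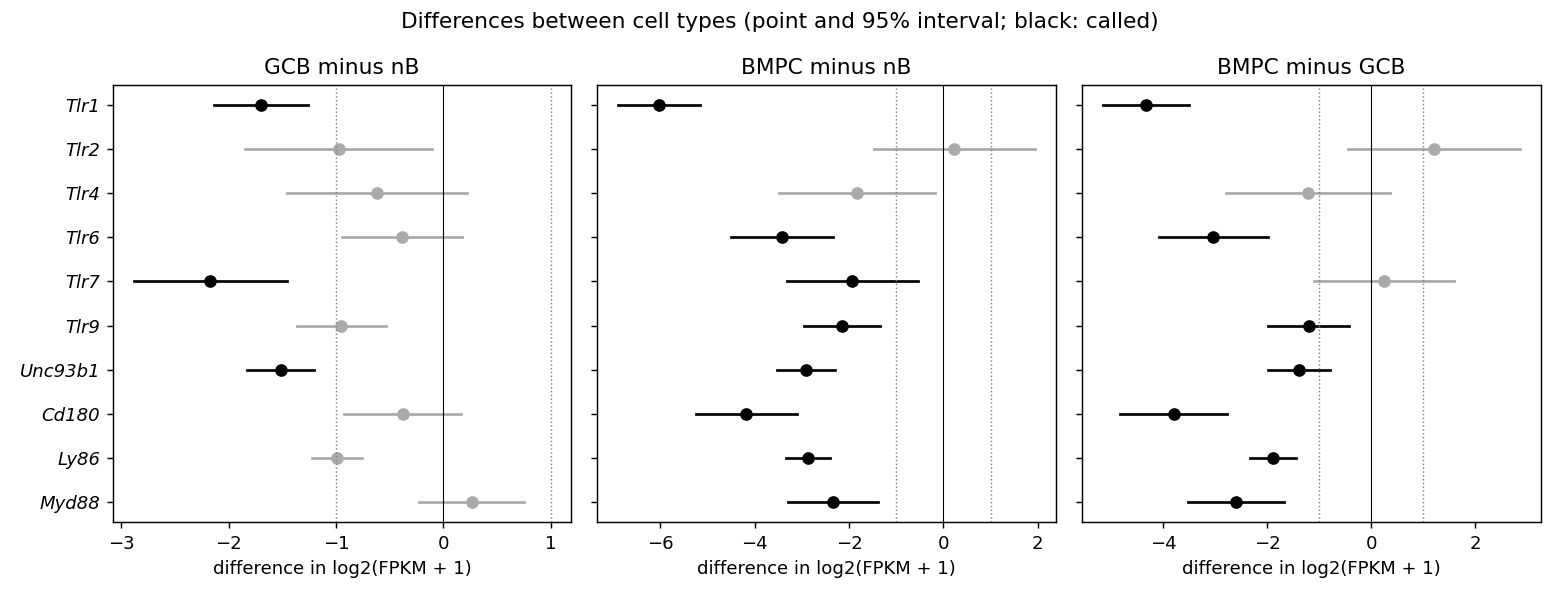
Difference between cell types in log2(FPKM + 1), mean of both genotypes, for each gene (point, estimate; line, 95% interval; black, called; grey, not called; dotted lines at a difference of 1 either way). Between BMPC and nB the 8 called genes all lie to the left, from -6.03 for Tlr1 to -1.93 for Tlr7.

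Tlr1, the surface partner of Tlr2 for triacylated lipoproteins (chr5:65316050-65324000 on mm9, minus strand), fell at both steps and was not detected in BMPC. It measured 62.5, 78.9 and 74.6 FPKM in the 3 Dnmt3-sufficient nB libraries and 73.6, 37.8 and 67.7 in the deficient ones. In GCB it measured 21.1, 11.2 and 14.9 in sufficient and 27.9, 23.3 and 20.8 in deficient libraries. All GCB libraries were below all nB libraries, a 3.32-fold difference of the means and a log2 change of -1.70 (SE 0.21, adjusted p = 2.0e-06).

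No BMPC library held a read of Tlr1, against 770 to 1947 reads in nB. Setting each BMPC library to 3 reads, which corresponds to 0.272 to 0.763 FPKM, put nB at least 137-fold and GCB at least 41.4-fold higher. A reading of at most 3 reads in all 6 BMPC libraries was shared by 10.9% of the genes tested, and by 1.32% of those with a mean of 50 to 100 FPKM in nB.

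Tlr6, the partner of Tlr2 for diacylated lipoproteins, lies 20344 bases from Tlr1 on the same strand (chr5:65344345-65351287 on mm9). Its nB levels were 8.06, 5.25 and 14.3 FPKM in sufficient and 14.2, 11.2 and 11.3 in deficient libraries. Its GCB levels were 2.53, 6.36 and 7.66 in sufficient and 9.58, 11.4 and 12.4 in deficient libraries, so that nB and GCB overlapped (log2 change -0.39, SE 0.26, limma adjusted p = 0.24, 95% interval -0.94 to 0.17). Tlr1 and Tlr6 thus parted at this step by their calls, a difference that was not itself tested.

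In BMPC 5 libraries had no read of Tlr6 and the third sufficient library had 3 reads, which placed nB at least 20.1-fold and GCB at least 15.6-fold higher (log2 changes of -3.42, SE 0.52, adjusted p = 4.3e-05, and -3.03, SE 0.50, adjusted p = 0.00010). At nB means of 2 to 20 FPKM, 8.23% of the genes tested were at or under 3 reads in all BMPC libraries. The sequences of both genes are alike in part: 17.4% of the 50-base stretches of the Tlr1 transcripts also occurred in Tlr6, and 17.8% the other way. The authors had the aligner report 1 alignment per read, so reads from such stretches may have been placed on either gene, and the levels of both are uncertain to that extent.

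Tlr2, the shared partner of Tlr1 and Tlr6 (chr3:83640195-83645689 on mm9, minus strand), was low throughout. It measured 3.35, 3.53 and 6.35 FPKM in sufficient and 1.10, 0 and 2.89 in deficient nB libraries, and between 0 and 3.30 in GCB. In BMPC it measured 0, 3.59 and 3.09 in sufficient and 4.50, 29.2 and 0 in deficient libraries. The second deficient library held 113 of its reads and stood far above the others. The means fell 3.21-fold from nB to GCB (log2 change -0.97, SE 0.42, limma adjusted p = 0.061), which was not called. It was called with a quality weight per library (-1.11, adjusted p = 0.032), without the second deficient nB library (-1.23, 0.030) and without the third sufficient GCB library (-1.27, 0.011). Neither comparison with BMPC called it, and the 95% interval for BMPC minus nB ran from -1.47 to 1.94.

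Tlr4, the lipopolysaccharide receptor (chr4:66488618-66591318 on mm9, plus strand), measured 2.25, 6.25 and 9.86 FPKM in sufficient and 16.6, 20.9 and 11.4 in deficient nB libraries. In GCB it ranged from 3.15 to 8.78. In BMPC it was at 0 in 4 of 6 libraries and measured 17.6 in the first sufficient and 31.3 in the second deficient library. Both are among the 3 BMPC libraries with the highest myeloid marker sums, 542 FPKM in the first sufficient, 635 in the second deficient and 618 in the third deficient library, against 66.0, 164 and 9.37 in the others. The third deficient library had no Tlr4 read. The part of other cells in these values was not tested.

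The change of Tlr4 from nB to BMPC was -1.83 (SE 0.78, limma adjusted p = 0.065) and was not called. Without the 3 BMPC libraries with a myeloid sum above 500 FPKM it was -3.37 (adjusted p = 0.027), and without the second deficient library alone it was -2.67 (adjusted p = 0.0090). Against GCB the change was -1.21 (SE 0.75, adjusted p = 0.22), and without the second deficient library -2.05 (adjusted p = 0.036). Without the first sufficient BMPC library the change from nB was -2.53 (adjusted p = 0.021), without the first sufficient nB library -2.07 (0.037), with a pseudocount of 0.1 -3.89 (0.019) and on voom-transformed reads -4.70 (0.0093). The call of Tlr4 thus turned on single libraries and on the scale used.

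**Figure D3:**
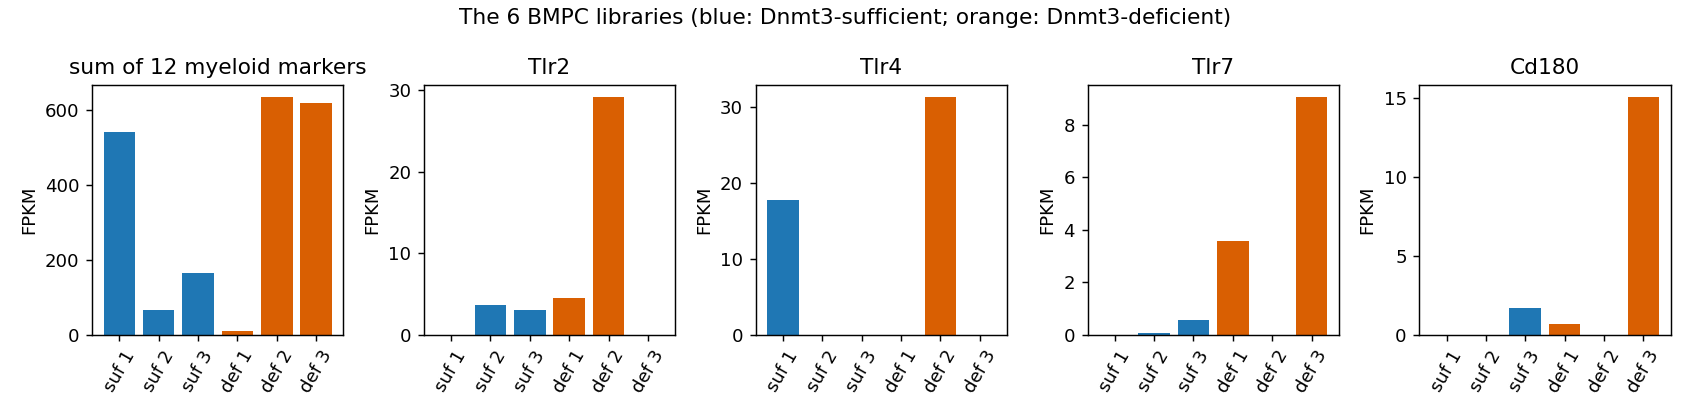
Level (FPKM, linear axes starting at 0) in each BMPC library of the summed 12 myeloid markers and of Tlr2, Tlr4, Tlr7 and Cd180 (suf, Dnmt3-sufficient; def, Dnmt3-deficient). Tlr4 was detected in 2 libraries with a high myeloid sum and not in the third, and the highest Tlr7 and Cd180 values fell in the same library, deficient 3.

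Tlr7, the endosomal receptor for single-stranded RNA (chrX:163742861-163768490 on mm9, minus strand), fell most of the 10 genes from nB to GCB on this scale. It measured 8.61, 2.85 and 8.44 FPKM in sufficient and 6.38, 7.13 and 9.96 in deficient nB libraries. In GCB it measured 1.38, 0.0570 and 2.29 in sufficient and 0.288, 0.152 and 1.22 in deficient libraries, all below nB. The means differed 8.05-fold (log2 change -2.17, SE 0.34, adjusted p = 3.3e-05).

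In BMPC Tlr7 measured 0, 0.0667 and 0.559 FPKM in sufficient and 3.57, 0 and 9.07 in deficient libraries. The change from nB was -1.93 (SE 0.66, limma adjusted p = 0.025), and it was lost without the first or second sufficient or the second deficient library (changes from -1.89 to -1.46, adjusted p from 0.060 to 0.11) without the 3 libraries of high myeloid sum (-1.69, adjusted p = 0.31) and with a pseudocount of 0.1 (-3.57, adjusted p = 0.077). Siglech, a marker of plasmacytoid dendritic cells, which carry Tlr7 and Tlr9, measured 22.6 to 115 FPKM in nB, at most 0.0516 in GCB and 0 to 39.7 in BMPC. Its highest BMPC library, the second deficient, had no Tlr7 read, and its part in the nB levels was not tested.

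Tlr9, the endosomal receptor for unmethylated CpG DNA (chr9:106124929-106129207 on mm9, plus strand), declined in the same order as Tlr1. Its nB levels were 3.10, 3.39 and 3.24 FPKM in sufficient and 4.25, 2.67 and 4.11 in deficient libraries. Its GCB levels were 0.919, 1.81 and 2.34 in sufficient and 0.914, 0.933 and 1.18 in deficient libraries, again without overlap with nB. The log2 change of -0.95 (SE 0.20, adjusted p = 0.00060) passed the test and missed the minimum change of 1; with a pseudocount of 0.1 it was -1.37 and on voom-transformed reads -1.44, both called.

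No BMPC library held a Tlr9 read, against 65 to 118 reads in nB and 27 to 62 in GCB. At 3 reads per BMPC library, or 0.227 to 0.638 FPKM, nB was at least 8.62-fold and GCB at least 3.36-fold higher (log2 changes -2.15, SE 0.39, adjusted p = 0.00023, and -1.20, SE 0.37, adjusted p = 0.016). Without the 3 BMPC libraries of high myeloid sum the change from GCB was still -1.20, with an adjusted p of 0.21.

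Unc93b1, which escorts Tlr7 and Tlr9 from the endoplasmic reticulum to endosomes (chr19:3935186-3949340 on mm9, plus strand), fell at both steps and stayed measurable in every library. It measured 328, 410 and 418 FPKM in sufficient and 464, 381 and 355 in deficient nB libraries. It then measured 126, 127 and 159 in sufficient and 139, 104 and 169 in deficient GCB libraries. In BMPC it measured 42.6, 19.3 and 74.0 in sufficient and 47.0, 81.8 and 75.6 in deficient libraries. The 3 cell types did not overlap.

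The means of Unc93b1 differed 2.86-fold between nB and GCB (log2 change -1.52, SE 0.15, adjusted p = 1.1e-07) and 2.42-fold between GCB and BMPC (-1.39, SE 0.28, adjusted p = 0.00073). On voom-transformed reads the latter was -1.42 with an adjusted p of 0.069. Unc93b1 exceeded the summed level of Tlr7 and Tlr9 in all cell types. The ratio log2((Unc93b1 + 1)/(Tlr7 + Tlr9 + 1)) averaged 5.10 ± 0.46 for nB, 5.48 ± 0.40 for GCB and 4.66 ± 1.36 for BMPC (SD, n = 6). No difference between cell types passed the exact permutation test (adjusted p from 0.35 to 0.69). In BMPC the denominator held only Tlr7 and the added 1, since Tlr9 had no read there.

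The ratio of Tlr7 to Tlr9, as log2((Tlr7 + 1)/(Tlr9 + 1)), averaged 0.82 ± 0.56 for nB, -0.40 ± 0.63 for GCB and 1.04 ± 1.40 for BMPC (SD, n = 6). Tlr9 was at 0 in all 6 BMPC libraries, so that the BMPC value holds only Tlr7 and the added 1. It was 0 in the 2 BMPC libraries without a read of either gene. In GCB, at means of 0.899 and 1.35 FPKM, the added 1 also sets much of the value. The difference of -1.22 between GCB and nB had an exact two-sided permutation p of 0.011, and 0.14 after adjustment over the 18 ratio tests.

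Ly86 and Cd180 form a surface complex, and their ratio is given after the level of each. Ly86 (chr13:37437214-37510905 on mm9, plus strand) measured 710, 691 and 604 FPKM in sufficient and 542, 690 and 513 in deficient nB libraries. It measured 347, 294 and 371 in sufficient and 324, 296 and 256 in deficient GCB libraries. In BMPC it measured 94.5, 83.6 and 208 in sufficient and 73.7, 55.5 and 51.8 in deficient libraries, so that no cell type overlapped another.

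The log2 change of Ly86 was -0.99 (SE 0.11, adjusted p = 6.3e-07) from nB to GCB, just under the minimum change; it was called with median-of-ratios scaling (-1.04) and without any 1 of 5 libraries (-1.03 to -1.01). From GCB to BMPC it was -1.88 (SE 0.21, adjusted p = 1.6e-06), a 3.33-fold difference of the means.

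Cd180 (chr13:103483638-103529709 on mm9, plus strand) was not called between nB and GCB: 39.2, 32.4 and 50.3 FPKM in sufficient and 47.7, 24.3 and 28.7 in deficient nB libraries, and 32.3, 21.4 and 26.9 in sufficient and 26.4, 26.6 and 31.7 in deficient GCB libraries. These ranges overlapped (log2 change -0.38, SE 0.26, adjusted p = 0.24, 95% interval -0.92 to 0.16). In BMPC it was at 0 in 3 libraries and measured 1.70 in the third sufficient, 0.658 in the first deficient and 15.1 in the third deficient library, the same library that held most Tlr7.

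The change of Cd180 from GCB to BMPC was -3.80 (SE 0.49, adjusted p = 8.0e-06), a 9.50-fold difference of the means. That fold rests on the third deficient BMPC library, which holds most of the BMPC level, and without it the log2 change was -4.40. The gene overlaps Mast4 on the other strand, which measured 0 to 6.47 FPKM, and use of strand in the counting was not given in the sources used here. Reads of both genes cannot be told apart where they overlap, which covers 3.03% of the 50-base stretches of the Cd180 transcripts.

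The ratio of Cd180 to Ly86, as log2((Cd180 + 1)/(Ly86 + 1)), averaged -4.07 ± 0.49 for nB, -3.47 ± 0.28 for GCB and -5.38 ± 1.84 for BMPC (SD, n = 6). Cd180 was at 0 in 3 BMPC libraries, where the ratio holds only Ly86 and the added 1. Its difference of -1.91 between BMPC and GCB had an exact permutation p of 0.022 and an adjusted p of 0.14. Without the third deficient BMPC library the difference was -2.65 and the exact adjusted p 0.019, and against nB it went from -1.31 (exact adjusted p = 0.33) to -2.04 (0.019). That was the only 1 of the 18 libraries whose removal brought either adjusted p under 0.05.

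Myd88, the adaptor that links most Toll-like receptors to the Irak kinases (chr9:119245052-119250529 on mm9, minus strand), was the gene of the set whose nB and GCB levels were most alike. It measured 37.4, 38.5 and 74.6 FPKM in sufficient and 54.9, 31.4 and 39.5 in deficient nB libraries. GCB gave 37.3, 56.4 and 58.6 in sufficient and 58.6, 53.9 and 58.4 in deficient libraries (log2 change 0.27, SE 0.23, adjusted p = 0.36, 95% interval -0.22 to 0.75).

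In BMPC Myd88 measured 15.5, 16.4 and 26.2 FPKM in sufficient and 9.32, 0 and 5.33 in deficient libraries, all below every nB and GCB library. The change from nB was -2.33 (SE 0.46, adjusted p = 0.00048) and that from GCB -2.60 (SE 0.44, adjusted p = 0.00013). Without the 3 BMPC libraries of high myeloid sum the change from nB was -1.59 with an adjusted p of 0.080. Myd88 overlaps 118 bases of Acaa1a on the other strand, which holds 0.939% of its 50-base stretches.

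Within the genotypes the calls were as follows, all of them falls. From nB to GCB, 3 genes were called in sufficient cells (Tlr1, Tlr7, Unc93b1) and 4 in deficient cells (these and Tlr9), where 28.7% and 25.4% of all genes tested were called in either direction. From nB to BMPC, 7 were called in each genotype: Tlr1, Tlr6, Tlr9, Unc93b1, Cd180 and Ly86 in both, Tlr7 in sufficient cells and Myd88 in deficient cells, beside 27.1% and 26.8% of all genes. From GCB to BMPC, 5 were called in each: Tlr1, Tlr6, Cd180 and Ly86 in both, Unc93b1 in sufficient and Myd88 in deficient cells, beside 21% and 24.9% of all genes. These shares count both directions. Of the 11522 genes tested, 1907 in sufficient and 1696 in deficient cells fell from nB to GCB. From nB to BMPC 2208 and 2486 fell in the same order, and from GCB to BMPC 1822 and 2296. Without the third sufficient GCB library the count from nB to GCB in sufficient cells was 5, and without the second sufficient BMPC library the count from GCB to BMPC in sufficient cells was 3.

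The second comparison asked whether loss of Dnmt3a and Dnmt3b changed the set within a cell type. No gene of the 10 was called by limma in nB, GCB or BMPC, nor on voom-transformed reads. Over all genes 0.0868%, 0.0174% and 0.148% were called. At an unadjusted p under 0.05, there was 1 gene of the set in nB (Tlr4), 2 in GCB (Tlr1, Tlr6) and 2 in BMPC (Ly86, Myd88), beside 623, 729 and 870 of all 11522 genes tested, so that these counts lie close to the background.

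Tlr4 was higher in all 3 deficient than in all 3 sufficient nB libraries, with means of 16.3 ± 4.78 and 6.12 ± 3.81 FPKM (SD, n = 3; log2 difference 1.41, 95% interval 0.06 to 2.75, limma adjusted p = 0.90). Tlr2 was lower in all 3 deficient nB libraries, at 1.33 ± 1.46 against 4.41 ± 1.69 FPKM (difference -1.38, interval -2.78 to 0.01, limma adjusted p = 0.92). In nB the genotypes did not overlap for these 2 of the 10 genes, and for 8.84% of all genes tested. Erythroid markers also separated the nB genotypes, at 26.5 to 276 FPKM in deficient and 0.525 to 1.42 in sufficient libraries, and their part in either difference was not tested.

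In GCB, Tlr6 was higher in all 3 deficient libraries, at 11.2 ± 1.45 against 5.52 ± 2.66 FPKM (SD, n = 3; difference 0.99, interval 0.33 to 1.66, limma adjusted p = 0.50). Its neighbour Tlr1 was at 24.0 ± 3.62 against 15.7 ± 5.001 FPKM, with a small overlap (difference 0.61, interval 0.08 to 1.14, limma adjusted p = 0.70). Tlr6 was the only gene of the 10 without overlap in GCB, where 10.6% of all genes had none. Dendritic markers summed to 27.8 to 29.8 FPKM in the deficient and 16.1 to 20.1 in the sufficient GCB libraries. This sum was mostly Flt3, and 3 of the 4 dendritic markers were at 0 in every sufficient GCB library. Erythroid markers summed to 14.2 to 47.6 FPKM in the deficient and 0.352 to 13.5 in the sufficient GCB libraries. The part of these markers in the difference was not tested.

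In BMPC, Myd88 was lower in all 3 deficient libraries, at 4.88 ± 4.68 against 19.4 ± 5.90 FPKM (SD, n = 3; difference -2.30, interval -4.04 to -0.56, limma adjusted p = 0.47). With equal weights for all libraries the same difference had an adjusted p of 0.046 and was called. Ly86 was lower in all 3 deficient libraries too, at 60.3 ± 11.7 against 129 ± 68.9 FPKM (difference -0.97, interval -1.81 to -0.14, adjusted p = 0.57). Over 29 alternatives the limma adjusted p of Ly86 ran from 0.047 to 0.996, and none of them called it. These were the 2 of 10 genes without overlap, beside 10.3% of all genes. In BMPC 1632925, 1355231 and 2265945 reads fell on genes in the deficient libraries, against 2196198, 3803197 and 3629318 in the sufficient ones. The second deficient library, the shallowest, was the only BMPC library without a Myd88 read. The part of depth in both differences was not tested. Erythroid markers summed to 125 to 1115 FPKM in the deficient and 1407 to 2704 in the sufficient BMPC libraries, plasma cell markers to 31160 to 48114 and 17008 to 26871, and mature B cell markers to 1733 to 1846 and 1172 to 1657; their part in these differences was not tested.

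The genotypes of the other genes overlapped in every cell type. For Tlr7 in BMPC, means of 4.22 ± 4.57 in deficient and 0.209 ± 0.306 FPKM in sufficient libraries gave an interval from -0.95 to 4.14, which leaves a large difference undetectable at this depth and spread. The interval for Unc93b1 was -0.45 to 0.55 in nB and -0.40 to 0.36 in GCB, the narrowest in these cell types after those of Ly86 (-0.58 to 0.17 and -0.49 to 0.07).

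**Figure D4:**
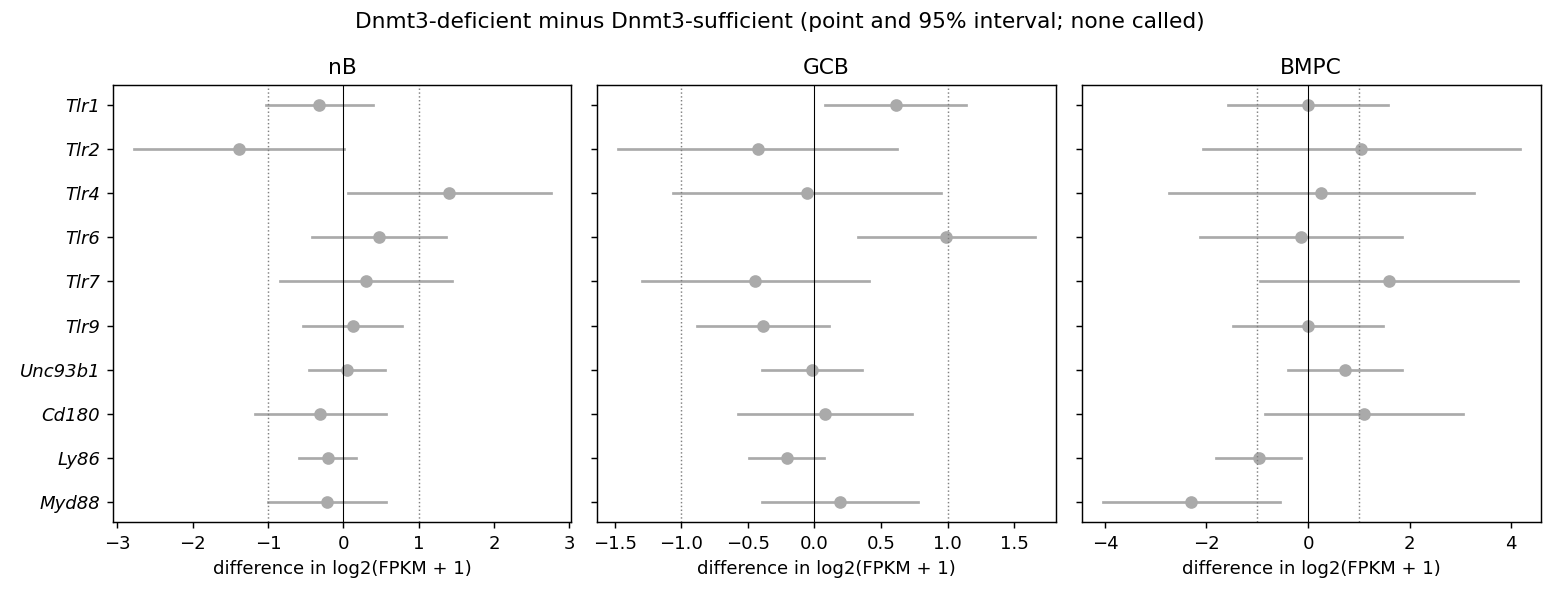
Dnmt3-deficient minus Dnmt3-sufficient difference in log2(FPKM + 1) within each cell type (point, estimate; line, 95% interval; dotted lines at 1 either way; grey, not called). None of the 30 differences was called, and the intervals in BMPC are the widest.

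The difference of the genotype change between cell types was called for none of the 10 genes by limma, beside 0.026% of all genes for GCB against nB, 0.104% for BMPC against nB and 0.0694% for BMPC against GCB. Each of the 3 had 1 gene of the set with an unadjusted p under 0.05, beside 638, 804 and 784 of the 11522 genes tested in the same order, which is near the background: Tlr1 for GCB against nB (0.93, SE 0.42, adjusted p = 0.89), and Myd88 for BMPC against nB (-2.09, SE 0.91, adjusted p = 0.68) and against GCB (-2.49, SE 0.88, adjusted p = 0.52). Sex, fitted as a term over all libraries, called none of the 10 and 0.0521% of all genes, and no gene of the set had an unadjusted p under 0.05. X-linked Tlr7 averaged 3.23 FPKM in female and 3.71 in male libraries (raw means over all cell types, which mix sex with cell type; the fitted difference within groups, female minus male, was -0.19, 95% interval -0.91 to 0.53).

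The third set of values places the 10 genes beside the rest of their pathway, a list of 48 further genes of which 40 passed the filter. From nB to GCB 12 fell and 3 rose, from nB to BMPC 23 fell and 3 rose, and from GCB to BMPC 20 fell and 5 rose. The median changes of the tested genes of the list were -0.58, -1.93 and -1.37, beside -0.13, -0.79 and -0.66 over all genes tested. The shares of all genes that fell and rose, against which these counts and those of the classes below are to be read, were 16.6% and 12.2% from nB to GCB, 33.5% and 8.76% from nB to BMPC, and 29.6% and 7.16% from GCB to BMPC.

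Of the 6 other Toll-like receptors Tlr5, Tlr8, Tlr11 and Tlr13 had no read in any of the 18 libraries. Tlr12 was at most 0.701 FPKM. Tlr3, the double-stranded RNA receptor, was between 0.0970 and 5.88 FPKM in nB, at most 0.911 in GCB and at 0 in BMPC, and was not called.

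Among 13 genes for folding, trafficking, processing and co-reception, of which 11 were tested, 5 fell and 3 rose from nB to BMPC. Ly96 (MD-2), the partner of Tlr4 as Ly86 is that of Cd180, rose where Ly86 fell: it averaged 18.3 ± 14.6 FPKM in nB, 42.6 ± 15.9 in GCB and 203 ± 101 in BMPC (SD, n = 6; log2 change 1.62, adjusted p = 0.0064, from nB to GCB and 3.69, adjusted p = 0.0025, from nB to BMPC, with 2.07, adjusted p = 0.061, from GCB to BMPC not called). It measured 230, 266 and 101 FPKM in sufficient and 270, 300 and 54.2 in deficient BMPC libraries, including all 4 without a Tlr4 read. Cd14, the other co-receptor for lipopolysaccharide, had no read in any library.

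Hsp90b1 (gp96), the chaperone that folds most Toll-like receptors, rose to 763 ± 197 FPKM in BMPC, from 272 ± 34.8 in nB and 139 ± 21.7 in GCB (log2 change 1.45 from nB and 2.43 from GCB, adjusted p = 1.8e-05 and 3.3e-08). The 3 cathepsins, proteases that also trim endosomal receptors, were lowest in GCB: Ctsl averaged 18.3 ± 11.0 FPKM in naive, 0.596 ± 0.844 in germinal centre and 25.5 ± 18.3 in plasma cells, and Ctss from 972 ± 90.1 to 265 ± 8.40 and 1380 ± 395. Ctsb rose from 111 ± 33.2 in nB to 233 ± 91.9 FPKM in BMPC.

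Of the 5 other adaptors, 4 were tested. Pik3ap1 (BCAP), which couples Toll-like and antigen receptors to PI3-kinase, measured 36.4 to 58.0 FPKM in nB and 40.6 to 55.6 in GCB and had no read in any BMPC library, at least 159-fold below nB at 3 reads per library. Tirap and Ticam2, bridging adaptors used by Tlr4, rose from nB to GCB, from 9.98 ± 4.33 to 27.4 ± 2.90 and from 2.19 ± 1.57 to 6.76 ± 2.11 FPKM (log2 changes 1.45 and 1.44, adjusted p = 0.00016 and 0.0022).

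Of 13 kinases and ubiquitin ligases, all tested, 4 fell from nB to GCB and 9 from nB to BMPC, and none rose in either. Irak2, a kinase downstream of Myd88, fell from 30.3 ± 11.7 FPKM in nB to 1.84 ± 0.762 in GCB (log2 change -3.40, adjusted p = 3.9e-08). The 4 interferon regulatory factors all fell from nB to BMPC and from GCB to BMPC. Irf5, an effector of Myd88 signalling, averaged 140.4 ± 17.5 FPKM in naive cells, 98.5 ± 14.4 at the germinal centre stage and 13.1 ± 12.6 in plasma cells. Irf7 measured 128 ± 90.6, 45.5 ± 13.1 and 18.1 ± 19.9, and Irf8 76.3 ± 12.4, 54.8 ± 18.5 and 5.06 ± 2.29.

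Among 7 negative regulators, 3 fell from nB to GCB and 4 from nB to BMPC. Irak3 (IRAK-M), which restrains the Irak kinases, measured 4.98 to 16.5 FPKM in nB, at most 0.873 in GCB and 0 in every BMPC library (log2 change from nB to GCB -3.36, adjusted p = 3.9e-09). Tnip1, a partner of the deubiquitinase A20, was the sole pathway gene called between genotypes: in BMPC it measured 1.22, 0.0879 and 0.460 FPKM in sufficient and 22.1, 11.3 and 24.9 in deficient libraries (log2 difference 3.68, SE 0.70, limma adjusted p = 0.040). This genotype change differed from that in GCB (4.03, SE 0.74, limma adjusted p = 0.049). Its nB range was 22.6 to 39.8 and its GCB range 16.6 to 28.5 FPKM, so that the 3 sufficient BMPC libraries lay below all nB and GCB libraries.

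**Figure D5:**
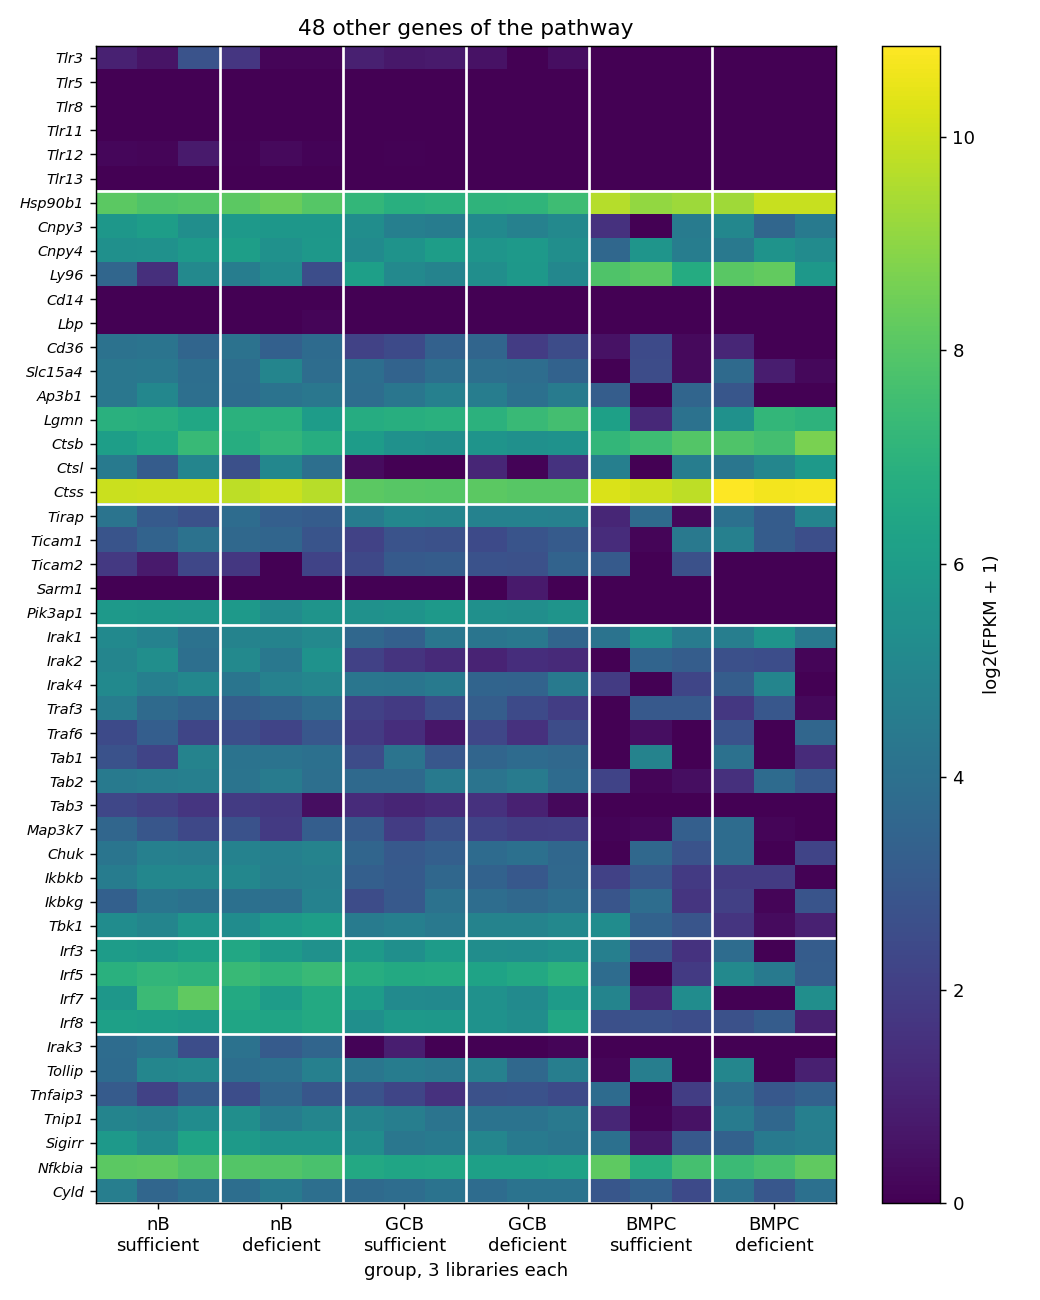
Level as log2(FPKM + 1), by colour, of the 48 other genes of the pathway (rows, with white lines between receptors, folding and co-receptor genes, adaptors, kinases and ligases, interferon regulatory factors and negative regulators) in the 18 libraries (columns). Pik3ap1 and Irak3 are at 0 in all BMPC libraries, while Hsp90b1, Ly96 and Ctss have their highest means there.

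The genes whose pattern was most like that of each member, by Pearson's r of log2(FPKM + 1) over the 18 libraries, give a last description. The libraries share depth and fall into 3 cell types, so that such r values mostly restate the differences between them. For Tlr1 these were Cr2 (r = 0.995), Gm8369 (0.992) and Znfx1 (0.992), of which Cr2 encodes the complement receptor of mature B cells and averaged 178 FPKM in nB, 39.0 in GCB and 0 in BMPC. For Tlr9 they were Chd7 (0.976), Lrrk2 (0.965) and Ccdc88c (0.963), and for Tlr6 Mob1a (0.968), Gm8615 (0.968) and Ciita (0.963), the last being the master regulator of MHC class II, at 95.6, 47.2 and 0 FPKM.

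Unc93b1 was most like Cd72 (0.968), Ganab (0.966) and Snx2 (0.963), and Ly86 was most like Ms4a4c (0.967), Fam102a (0.966) and Dlgap4 (0.962). The closest genes to Cd180 were Primpol (0.979), Dnajc5 (0.975) and Ccng2 (0.974), and to Myd88 Gtpbp4 (0.957), Tardbp (0.951) and Parp1 (0.943). Tlr7 resembled Dennd6a (0.918), Il10ra (0.902) and Pip5k1b (0.894), Tlr4 resembled Msrb2 (0.923) and Supt7l (0.891), and Tlr2 had the loosest likeness, with Slc25a23 (0.802), Tmem39a (0.798) and Mlx (0.771). Within the set the highest r was that of Tlr1 with Tlr9 (0.941), followed by Tlr1 with Tlr6 (0.939) and Tlr1 with Ly86 (0.934).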

How the data were processed

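Gene-level FPKM values for 18 libraries were used as the authors deposited them. Per the labels and the study's methods, cDNA was amplified with a SMARTer kit and Nextera, paired-end reads were aligned to mm9 with TopHat reporting 1 alignment per read, and exon reads per UCSC gene were counted and normalised to FPKM in R (version 3.2.2 in the submitters' processing notes); strand use was not given in the sources used here. The table also holds the authors' fold changes and p-values from edgeR (3.12.1), which were not used. FPKM times exon length gave whole reads for every value (largest deviation 2.2e-09), so reads per library and the depth were recovered (1355231 to 8987922 reads on genes); 0 value columns were left unmatched to a sample.

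All genes over 1 FPKM in 2 or more libraries entered a limma (3.58.1, R 4.3.3) fit of log2(FPKM + 1) with 1 mean per group, weights per cell type (arrayWeights) and a trended prior, over all 18 libraries. P-values were adjusted by Benjamini-Hochberg over 11522 genes, and calls needed an adjusted p of at most 0.05 and a log2 change of at least 1. The sex term was added in a second fit. Ratios of partners were compared by exact two-sided permutation tests, adjusted over 18 tests; 3 against 3 libraries cannot go below 0.1. Genes at or under 3 reads in all 6 libraries of a cell type were set to 3 reads per library for a bound on the fold; such limits cover counting error only, and amplified reads are not independent molecules. The fit was tested on simulated data with genotype changes put into nB and GCB only, so that recovery of a change in BMPC was not tested. Per the study, each nB and BMPC library came from 1 mouse and each GCB library from a pool of 2, in 3 experiments; which library belonged to which experiment was not given in the sources used here. The same replicate numbers paired no GCB libraries by the data (below).

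The members, lists and tests were chosen with earlier results of these data known. Named are the 10 members, pathway genes called between genotypes, the 3 largest rises and falls among called pathway genes per comparison of cell types, and the 3 genes most like each member (for Tlr4, 1 of them is not reported here); other pathway genes and markers were named after their values were seen. Coordinates are from GENCODE vM1 on mm9 and promoters from RefSeq, GRCm38.p6. Alternatives covered the pseudocount, the filter, scaling, weights, sex, voom on recovered reads, thresholds and leaving out each library; leaving out 3 BMPC libraries of high myeloid level was added after seeing the data.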

Additional observations from a re-analysis of the deposited data

Results flagged for a closer look

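Tnip1, a partner of the deubiquitinase A20 and 1 of the 48 other pathway genes, changed differently with genotype in BMPC and in GCB. The difference between both genotype changes was 4.03 on the log2(FPKM + 1) scale (SE 0.74, limma adjusted p = 0.049 over all genes tested). The deficient minus sufficient change was 3.68 in BMPC, where all 3 deficient libraries were higher, and -0.35 in GCB. Against nB the difference was 3.70 with an adjusted p of 0.077. The 3 libraries that set it apart are sufficient BMPC libraries, whose erythroid marker sums were also above those of the deficient ones, and the part of other cells was not tested.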

How the results depend on the processing

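Of 2897 values recomputed under 32 alternatives for 110 results, none of the called differences reversed, and 55 values that were called neither before nor after changed sign. The number of the 10 genes called from nB to GCB went from 3 to 5 with no minimum change and ranged from 3 to 6 when each library was left out (5 without the second deficient nB library, 6 without the third sufficient GCB library). In sufficient cells alone it went from 3 to 5 with a quality weight per library and ranged from 3 to 5 without each library, and from GCB to BMPC in sufficient cells it ranged from 3 to 6. With equal weights 1 gene (Myd88) in place of 0 was called between genotypes in BMPC, 2 pathway genes in place of 1 were called there, and 9 in place of 15 from nB to GCB. Leaving out each library moved the difference in the Cd180 to Ly86 ratio between -2.04 and -1.07 for BMPC against nB and between -2.65 and -1.67 for BMPC against GCB. The cause of these moves was not tested.

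The GCB libraries share replicate codes, but deviations of same-coded libraries from their group means did not correlate (r = 0.026, -8.1e-05 and -0.017), so the codes were not used to pair them; with the code as a replicate block 0 of the 10 genes were called between GCB genotypes, as without it, and Tlr6 kept a log2 difference of 0.99 (adjusted p = 0.74 with the block). No BMPC library exceeded 3 times the median myeloid sum of its cell type, so no such library could be left out of the genotype comparison in BMPC. Depth limits BMPC most: 3 reads correspond there to between 0.200 FPKM for Tlr7 and 2.22 FPKM for Ly86, and low levels under that were not detectable.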
